A study of Mus musculus with 30 samples.

Results

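The genes described here are 10 general tumor-associated macrophage (TAM) genes, chosen by name from the 21841 rows of the count table: 3 pan-macrophage genes (Adgre1, Csf1r and Cd68), the 3 complement C1q chains (C1qa, C1qb and C1qc) and 4 genes of lipid-associated macrophages (Trem2, Apoe, Spp1 and Gpnmb). All 10 were among the 13663 genes that passed the filter on low counts. Bulk RNA sequencing was performed on mammary tumors of mice of the FVB/N-Tg(MMTV-PyVT)634Mul/J strain, in which the mouse mammary tumor virus promoter drives polyoma middle T antigen and tumors arise spontaneously, so that every group carried the transgene. There were 6 groups of 5 libraries, 30 in all, namely vehicle, 3 single agents (gemcitabine, 5-FU or KCL-HO-1i) and the combination of KCL-HO-1i with either chemotherapy, written KCL-HO-1i/gemcitabine and KCL-HO-1i/5-FU. The compound KCL-HO-1i is a tin mesoporphyrin phosphate salt that inhibits heme oxygenase-1 (HO-1), and 5-FU (5-fluorouracil) and gemcitabine are cytotoxic antimetabolites. Per the labels, agents were injected into the peritoneum over 72 h, gemcitabine at 64 mg/kg per 7 days, 5-FU at 40 mg/kg per 4 days, and the inhibitor daily at 25 µmol/kg, while in the text of the study the time was shorter and the dose of gemcitabine lower. Age was not given in the sources used here.

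Macrophages depend on CSF1R, the receptor for colony stimulating factor-1, and carry the surface protein F4/80 (encoded by Adgre1) and the lysosomal glycoprotein CD68. Tissue macrophages are the main source of C1q, the recognition molecule that starts the classical complement pathway and also marks dying cells for uptake. TREM2 is a lipid-sensing receptor that signals through the adaptor TYROBP, and APOE (a lipid carrier), osteopontin (encoded by Spp1) and the transmembrane glycoprotein GPNMB mark macrophages that take up lipid and debris, although osteopontin is also secreted by epithelial and other cells.

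Library totals ran from 10067577 to 13622264 counts, and 14629 to 15614 genes had at least 1 count. Levels are given as CPM, the count of a gene relative to the effective library size (TMM normalization), and a count of 3 was worth 0.215 to 0.302 CPM. Differences are log2 fold changes ± SE from edgeR's quasi-likelihood test, fitted to the 30 libraries together, and p-values were adjusted by the Benjamini-Hochberg method over all tested genes. In the KCL-HO-1i average over 3 backgrounds (each group given the inhibitor against its match without it, that is vehicle, 5-FU or gemcitabine), Hmox1, the gene for HO-1, rose by 2.42 ± 0.38 (adjusted p = 0.0113). Vehicle replicate 3 held the lowest of 30 values for 7 of the 10 macrophage genes, and KCL-HO-1i/5-FU replicate 3 held the highest for 9 of 10. KCL-HO-1i replicate 4 had the largest share of mitochondrial counts, 9.69%, in a range that began at 1.44%.

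The macrophage genes were higher with KCL-HO-1i, but none passed the adjusted threshold in edgeR's test. In the KCL-HO-1i average, all 10 had positive log2 fold changes, with a median of 0.74 beside 0.00 for all tested genes. The C1q chains stood between 0.78 and 0.80, Csf1r at 0.76 ± 0.22, and Gpnmb at 0.41 ± 0.50. No gene of the 10 reached an adjusted p of 0.05, against 8 of 13663 tested genes (0.0586%), and the smallest adjusted p was 0.0558, for C1qb. At an unadjusted p under 0.05, 8 of 10 were higher and none lower, all but Spp1 and Gpnmb, where 13.7% of all tested genes were higher. In this tissue, more macrophages and more RNA per macrophage cannot be told apart.

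The call depended on the tool and on single libraries. DESeq2 called 6 of the 10 genes in the KCL-HO-1i average (Adgre1, Csf1r, C1qa, C1qb, C1qc and Trem2), where it called 8.38% of all genes it tested. Limma-voom with sample quality weights called C1qa and C1qb, with 1.92% of all tested genes called. Without gemcitabine replicate 5, the library highest in that group for all 10 genes, edgeR called 7 of the 10 (8.17% of tested genes), namely all but Apoe, Spp1 and Gpnmb. Leaving out 1 of 5 other libraries, all given KCL-HO-1i, also moved more genes in the whole table past the threshold. The calls among the 10 were 2 without KCL-HO-1i replicate 1 (3.38% of tested genes), 3 without its replicate 5 (3.45%), 4 without KCL-HO-1i/5-FU replicate 4 (6.07%), 4 without its replicate 5 (3.72%), and 1 when replicate 4 of KCL-HO-1i/gemcitabine was left out (3.37%). Each of the remaining 24 gave 0.

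**Figure D1:**
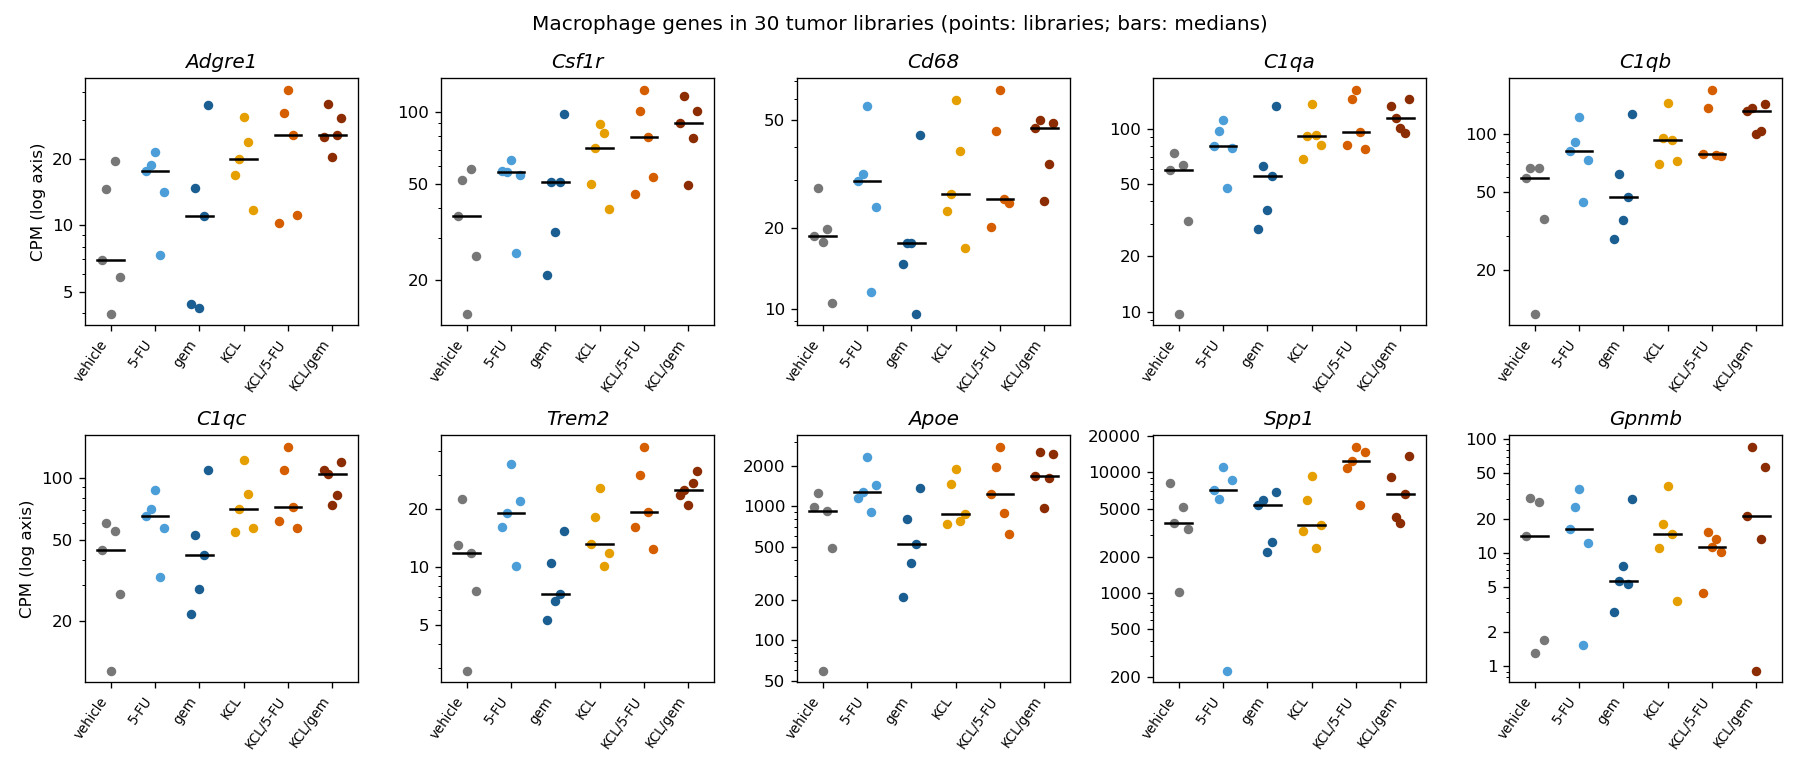
CPM of the 10 macrophage genes on log axes, 1 panel a gene and 1 point a library, with a bar at the median of the 5 libraries of each group (gem, gemcitabine; KCL, KCL-HO-1i). The vehicle and gemcitabine medians lie lowest for 7 of the 10 genes, and single libraries such as vehicle replicate 3 and gemcitabine replicate 5 lie far from the rest of their groups.

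Among the pan-macrophage genes, Csf1r measured 37.0, 52.0, 14.3, 58.3 and 25.2 CPM in vehicle replicates 1 to 5 and 50.4, 70.9, 89.8, 82.1 and 39.3 CPM in KCL-HO-1i. With 5-FU alone Csf1r was 57.0, 56.5, 63.28, 25.8 and 54.6 CPM, and with KCL-HO-1i/5-FU it was 45.8, 101, 125, 79.3 and 53.7 CPM. With gemcitabine alone it was 21.0, 51.1, 31.6, 51.2 and 98.8 CPM, and with KCL-HO-1i/gemcitabine it was 90.8, 117, 49.8, 77.9 and 101 CPM. Each KCL-HO-1i group overlapped its matching group, yet of the 15 libraries given KCL-HO-1i, 14 exceeded the mean log2 level of the matching group. Against vehicle, Csf1r was higher by 0.83 ± 0.38 with KCL-HO-1i, 1.11 ± 0.38 with KCL-HO-1i/5-FU and 1.22 ± 0.38 with KCL-HO-1i/gemcitabine (adjusted p = 0.495, 0.147 and 0.0955).

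Adgre1 had a vehicle mean of 10.2 ± 6.61 CPM (SD, n = 5), with libraries from 3.96 to 19.5 CPM. Its mean was 27.3 ± 5.69 CPM (SD, n = 5) in KCL-HO-1i/gemcitabine, where every library, from 20.4 CPM up, lay above every vehicle library. Its average difference with KCL-HO-1i was 0.87 ± 0.28 (adjusted p = 0.0812), the largest point value of the 10, and those of 7 other genes lay within 1 SE of it. Cd68 ran from 9.55 CPM in gemcitabine replicate 4 to 65.1 CPM in KCL-HO-1i/5-FU replicate 3, and its average difference was 0.68 ± 0.24 (adjusted p = 0.0988). In vehicle replicate 3, where the C1q chains were lowest, Cd68 stood at 17.7 CPM, near the vehicle median of 18.7 CPM, so that the ratio of Cd68 to C1qb was 1.49 there and 0.337 at the median of the 30 libraries.

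The C1q genes lie side by side on the minus strand of chr4:136880129-136898803 (mm10, GENCODE M21), a stretch of 18675 bases that holds C1qb (chr4:136880129-136886187), C1qc (chr4:136889804-136893065) and C1qa (chr4:136895917-136898803) with gaps of 3616 and 2851 bases and no other annotated gene. Because these genes varied together across libraries, sequences from the 250 bases before the RefSeq starts of C1qb and C1qc (GRCm38.p6) are shown here. Each is written 5′ to 3′ on the strand of the gene and without annotated exon bases, and capitals mark the motifs searched. C1qb is given at chr4:136886201-136886450 and C1qc at chr4:136893066-136893164, the 99 bases of its window that lie farthest upstream.
C1qb: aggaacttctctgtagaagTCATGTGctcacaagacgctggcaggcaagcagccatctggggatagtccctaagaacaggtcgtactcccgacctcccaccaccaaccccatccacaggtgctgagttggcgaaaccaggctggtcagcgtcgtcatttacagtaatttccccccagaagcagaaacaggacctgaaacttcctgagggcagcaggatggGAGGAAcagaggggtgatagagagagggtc
C1qc: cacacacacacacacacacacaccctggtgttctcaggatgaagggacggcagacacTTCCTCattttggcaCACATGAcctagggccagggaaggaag
Both windows held GAGGAA, the core of sites bound by the myeloid factor PU.1, which was present on either strand in 23.3% of the 32851 RefSeq windows of 250 bases before a start. Both also held TCATGTG, the M-box of the MiT/TFE factors, against 3.25% of all windows, on the same strand as the gene in C1qb and on the opposite strand in C1qc. Such matches describe these letters only and do not show binding.

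C1qb was 58.9, 66.5, 11.9, 66.3 and 36.7 CPM in vehicle replicates 1 to 5 and 69.5, 94.4, 143, 92.8 and 72.3 CPM in KCL-HO-1i. In 5-FU it was 81.4, 90.3, 122, 44.7 and 73.36 CPM, compared with 78.3, 135, 168, 77.4 and 77.1 CPM in KCL-HO-1i/5-FU. In gemcitabine it was 28.9, 61.9, 36.1, 47.0 and 125 CPM, compared with 130.0, 136, 99.6, 103 and 142 CPM in KCL-HO-1i/gemcitabine. All 15 KCL-HO-1i libraries therefore lay above the highest vehicle library, at 66.5 CPM, whereas the 5-FU libraries other than replicate 4, and gemcitabine replicate 5, also lay above it. C1qb was the only one of the 10 genes without overlap between KCL-HO-1i and vehicle, a pattern that 0.747% of all tested genes showed in the upward direction.

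Against vehicle, C1qb was higher by 0.97 ± 0.38 with KCL-HO-1i (adjusted p = 0.408), 1.16 ± 0.38 with KCL-HO-1i/5-FU (adjusted p = 0.138) and 1.34 ± 0.39 with KCL-HO-1i/gemcitabine (adjusted p = 0.0869). 5-FU alone gave 0.78 ± 0.38 and gemcitabine alone 0.32 ± 0.38, with adjusted p = 0.999 and 0.945. Without vehicle replicate 3 the difference for KCL-HO-1i/gemcitabine was 1.06. C1qa and C1qc had the same order of group means as C1qb, from vehicle through gemcitabine, 5-FU, KCL-HO-1i and KCL-HO-1i/5-FU to KCL-HO-1i/gemcitabine, an order shared with Adgre1, Csf1r and Cd68. The means of C1qa ran from 47.5 ± 26.4 to 118 ± 20.9 CPM and those of C1qc from 39.6 ± 20.1 to 97.8 ± 18.9 CPM (SD, n = 5). For these 6 genes, neighbors in this order differed by less than the larger SD of the pair.

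The proportion of the 3 chains varied little. The ratio of C1qa to C1qb stayed between 0.815 and 1.24 over 30 libraries while C1qb itself ranged from 11.9 to 168 CPM, and that of C1qc to C1qb stayed between 0.714 and 0.963. The SD of the log2 ratio was 0.131 for C1qa to C1qb and 0.112 for C1qc to C1qb. It was 0.295 for Csf1r to C1qb, 0.346 for Trem2, 0.973 for Spp1 and 1.25 for Gpnmb.

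**Figure D2:**
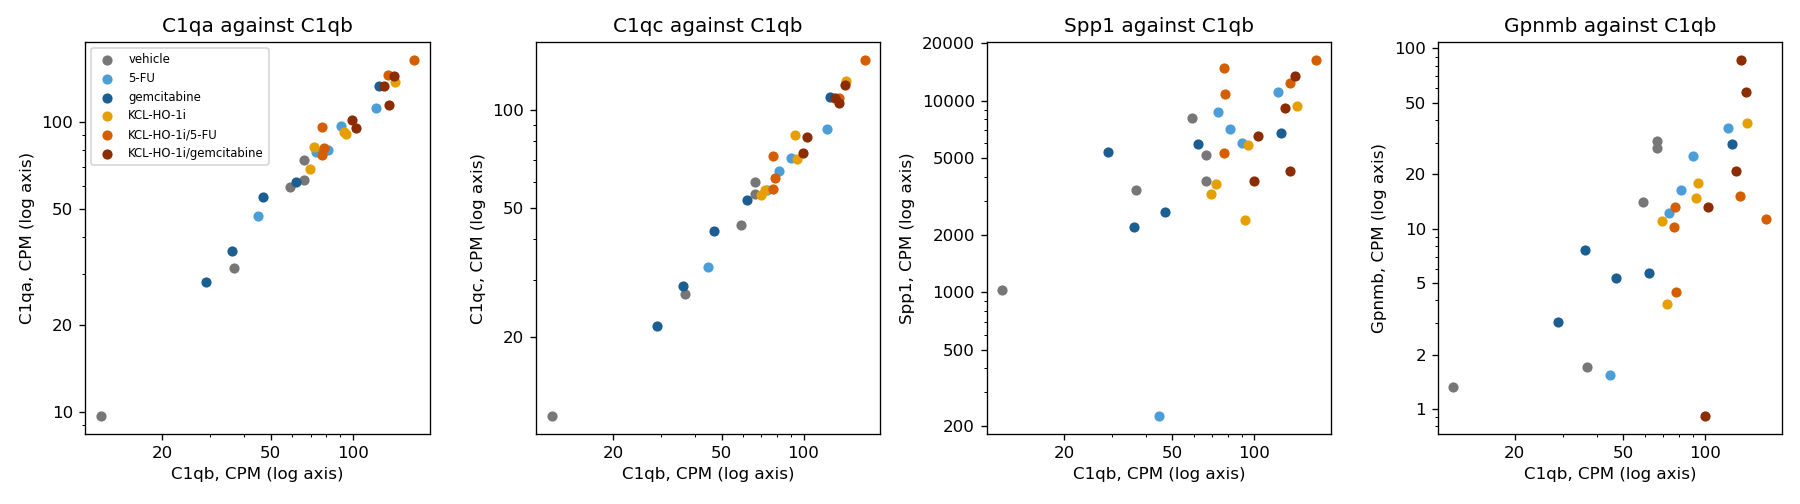
CPM of C1qa, C1qc, Spp1 and Gpnmb against CPM of C1qb in the 30 libraries, on log axes and colored by group. C1qa and C1qc lie on a narrow line (ratios of 0.815 to 1.24 and 0.714 to 0.963), while the ratio of Spp1 to C1qb ranges from 5.03 to 192 and that of Gpnmb to C1qb from 0.00912 to 0.635.

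Trem2 (chr17:48346401-48354147, plus strand) showed its clearest separation when KCL-HO-1i was added to gemcitabine, and its upstream sequence at chr17:48346151-48346400 is shown for that reason, on the same terms as above.
Trem2: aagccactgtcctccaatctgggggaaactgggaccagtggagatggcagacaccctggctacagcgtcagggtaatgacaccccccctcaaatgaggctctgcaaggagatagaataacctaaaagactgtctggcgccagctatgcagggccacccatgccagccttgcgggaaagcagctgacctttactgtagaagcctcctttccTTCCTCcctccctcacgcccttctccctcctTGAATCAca
It held GAGGAA on the opposite strand and, 9 bases before the start, TGAATCA. The latter matches TGANTCA, searched as a loose form of the AP-1 site (where N is any base), which 6.75% of all windows held. Trem2 was 5.31, 10.52, 6.68, 7.29 and 15.3 CPM in gemcitabine replicates 1 to 5 and 23.6, 25.0, 20.9, 27.1 and 31.5 CPM in KCL-HO-1i/gemcitabine. The groups did not overlap, which held for 0.695% of all tested genes in this direction and for no other gene of the 10. In vehicle it was 13.0, 22.6, 2.90, 11.8 and 7.51 CPM and in KCL-HO-1i 13.2, 18.1, 25.8, 10.1 and 11.8 CPM. In 5-FU it was 16.1, 19.0, 33.9, 10.2 and 22.1 CPM and in KCL-HO-1i/5-FU 16.2, 29.9, 41.9, 19.2 and 12.4 CPM. In these other pairs the groups overlapped.

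The difference of KCL-HO-1i/gemcitabine from gemcitabine in Trem2 was 1.51 ± 0.41, or 2.84-fold, with an unadjusted p of 0.00109 and an adjusted p of 0.282. It was 0.45 ± 0.40 against vehicle for KCL-HO-1i alone and 0.24 ± 0.40 for KCL-HO-1i/5-FU against 5-FU. The former became 0.18 without vehicle replicate 3 and the latter -0.06 without KCL-HO-1i/5-FU replicate 3, while the gemcitabine pair ranged from 1.35 to 1.75 with any 1 library left out. The interaction of KCL-HO-1i with gemcitabine, which tests whether its difference on gemcitabine departs from that on vehicle, was 1.06 ± 0.57 (unadjusted p = 0.0759, adjusted p = 1.00). Apoe (chr7:19696109-19699188, minus strand) followed Trem2, with a difference of 1.49 ± 0.55 when KCL-HO-1i was added to gemcitabine (adjusted p = 0.289) and 0.07 ± 0.53 when it was added to 5-FU, the latter -0.27 without KCL-HO-1i/5-FU replicate 3. The interaction with gemcitabine in Apoe was 0.85 ± 0.76 (adjusted p = 1.00). For both genes, gemcitabine alone had the lowest group mean, 9.02 ± 4.00 CPM for Trem2 and 657 ± 454 CPM for Apoe, and KCL-HO-1i/gemcitabine the highest, 25.6 ± 3.98 and 1847 ± 645 CPM (SD, n = 5).

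Spp1 (chr5:104435118-104441050, plus strand) was the most abundant of these transcripts per length of exon and departed from the others in which combination stood highest. The bases before its first RefSeq start, chr5:104434861-104435110, are shown beside those of C1qb and C1qc because its level ran apart from theirs.
Spp1: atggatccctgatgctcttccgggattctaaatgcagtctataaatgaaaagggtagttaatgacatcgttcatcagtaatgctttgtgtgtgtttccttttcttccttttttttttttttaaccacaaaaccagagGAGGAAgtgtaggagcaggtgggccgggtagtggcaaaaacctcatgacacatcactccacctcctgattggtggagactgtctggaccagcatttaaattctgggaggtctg
They held GAGGAA on the same strand and no match to TCATGTG. Spp1 was 7095, 6044, 11124, 225 and 8689 CPM in 5-FU replicates 1 to 5 and 10788.5, 12447, 16289, 5310.1 and 14827 CPM in KCL-HO-1i/5-FU. In vehicle it was 8119, 3820.4, 1027, 5191 and 3409 CPM and in KCL-HO-1i 3255, 5876, 9360.3, 2378 and 3654 CPM. In gemcitabine it was 5378, 5921, 2194, 2635 and 6821 CPM and in KCL-HO-1i/gemcitabine 9120.3, 4279.7, 3831, 6575 and 13513 CPM. In KCL-HO-1i/5-FU, 4 of 5 libraries lay above every vehicle library, and 5-FU replicate 4 was more than an order of magnitude below the rest of its group.

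Spp1 in KCL-HO-1i/5-FU exceeded vehicle by 1.47 ± 0.61 (adjusted p = 0.208), KCL-HO-1i by 1.28 ± 0.60 (adjusted p = 0.279) and 5-FU by 0.85 ± 0.60 (adjusted p = 0.601). KCL-HO-1i alone differed from vehicle by 0.19 ± 0.59, and this value became -0.20 without KCL-HO-1i replicate 3. Per kilobase of annotated exon, the vehicle mean of Spp1 was 2617 CPM, compared with 347 for Apoe, 45.7 for C1qa, 44.2 for C1qb, 20.5 for C1qc and 15.1 for Cd68. The remaining genes ranged from 2.32 (Gpnmb) to 6.47 (Csf1r) CPM per kilobase, which is low in part by construction where the union of exons is long, such as 6514 bases for Gpnmb and 4946 bases for Trem2.

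Gpnmb (chr6:49036546-49070929, plus strand) varied the most within groups. It was 14.00, 30.5, 1.32, 28.1 and 1.71 CPM in vehicle replicates 1 to 5 and 20.9, 86.1, 0.909, 13.2 and 57.0 CPM in KCL-HO-1i/gemcitabine, a 94.7-fold range within 1 group. In KCL-HO-1i/5-FU the 5 values were 4.45, 15.1, 11.4, 13.2 and 10.3 CPM, and in 5-FU they were 16.3, 25.2, 36.4, 1.55 and 12.2 CPM. In KCL-HO-1i they were 10.98, 17.9, 38.7, 14.7 and 3.79 CPM, and in gemcitabine 3.02, 5.68, 7.60, 5.35 and 29.5 CPM. All 6 groups overlapped. Adding KCL-HO-1i gave 1.80 ± 0.90 with gemcitabine (adjusted p = 0.379) and -0.75 ± 0.88 with 5-FU (adjusted p = 0.776). The former was 1.16 without KCL-HO-1i/gemcitabine replicate 2 and 2.68 without gemcitabine replicate 5.

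The share of the variation in log2 CPM that lay between the 6 groups separated the genes in the same way. It was 48.5% for Trem2, 43.8 to 46.4% for the C1q chains, 32.7 to 38.9% for Adgre1, Csf1r, Cd68 and Apoe, 21.9% for Spp1 and 7.25% for Gpnmb, beside a median of 20.5% over all tested genes.

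For chemotherapy alone, no difference of the 10 genes from vehicle passed either threshold. With 5-FU against vehicle, all 10 log2 fold changes were positive with a median of 0.68, but 0 of 10 passed an unadjusted p under 0.05 (1.65% of all tested genes did so in this direction) and 0 were without overlap (background 0.315%). The largest was Apoe at 0.94 ± 0.54, and C1qa was at 0.80 ± 0.39. With gemcitabine against vehicle, 7 of 10 were positive with a median of 0.22, and 0 of 10 passed the unadjusted p (2.05% of all tested genes) or lacked overlap (0.198%). Without gemcitabine replicate 5, the gemcitabine difference became negative for Adgre1 (-0.24), Cd68 (-0.35) and all C1q chains (-0.14 to -0.06).

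With KCL-HO-1i alone against vehicle, 5 of 10 were higher at an unadjusted p under 0.05 (Adgre1, Csf1r and the C1q chains), beside 7.36% of all tested genes. With KCL-HO-1i/5-FU against vehicle, 8 of 10 were higher by that rule, all but Apoe and Gpnmb, beside 9.79%, and C1qa and C1qb were without overlap, beside 1.53%. With KCL-HO-1i/gemcitabine against vehicle, 8 of 10 were higher, all but Spp1 and Gpnmb, beside 11.7%, and Adgre1 and the C1q chains were without overlap, beside 2.2%. These 5 comparisons share the vehicle libraries. No gene of the 10, and none of the 13663 tested genes (0.0%), passed the adjusted threshold of edgeR's test in any of them. In KCL-HO-1i/gemcitabine against vehicle, limma-voom called 8 of 10 (9.59% of tested genes) and DESeq2 4 of 10 (6.49%), and in KCL-HO-1i/5-FU against vehicle DESeq2 called C1qa alone (3.0%).

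Adding KCL-HO-1i to a chemotherapy gave different counts for the 2 drugs. Against gemcitabine, KCL-HO-1i/gemcitabine was higher at an unadjusted p under 0.05 in 7 of 10 genes (6.94% of tested genes), all but Adgre1, Spp1 and Gpnmb. Against 5-FU, KCL-HO-1i/5-FU was higher in 0 of 10 (6.18%), none were without overlap (0.937%) and the median log2 fold change was 0.41 beside 0.99 for the gemcitabine pair. That the counts differ does not show that the effects differ. The interaction terms were under an unadjusted p of 0.05 and above 0 in 0 of 10 genes for 5-FU (4.03% of tested genes) and in 0 of 10 for gemcitabine (0.644%). For 5-FU, 1 of 10 terms was positive and the median was -0.51. Below 0, 0 of 10 passed that threshold for 5-FU, where 616 of 13663 tested genes did. For gemcitabine, 6 of 10 terms were positive and the median was 0.125. Set against KCL-HO-1i alone at the same threshold, 1 of 10 genes, Spp1, was higher in KCL-HO-1i/5-FU (7.47%) and 0 of 10 in KCL-HO-1i/gemcitabine (1.2%). These 6 contrasts had 0.0% of tested genes past the adjusted threshold of edgeR.

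**Figure D3:**
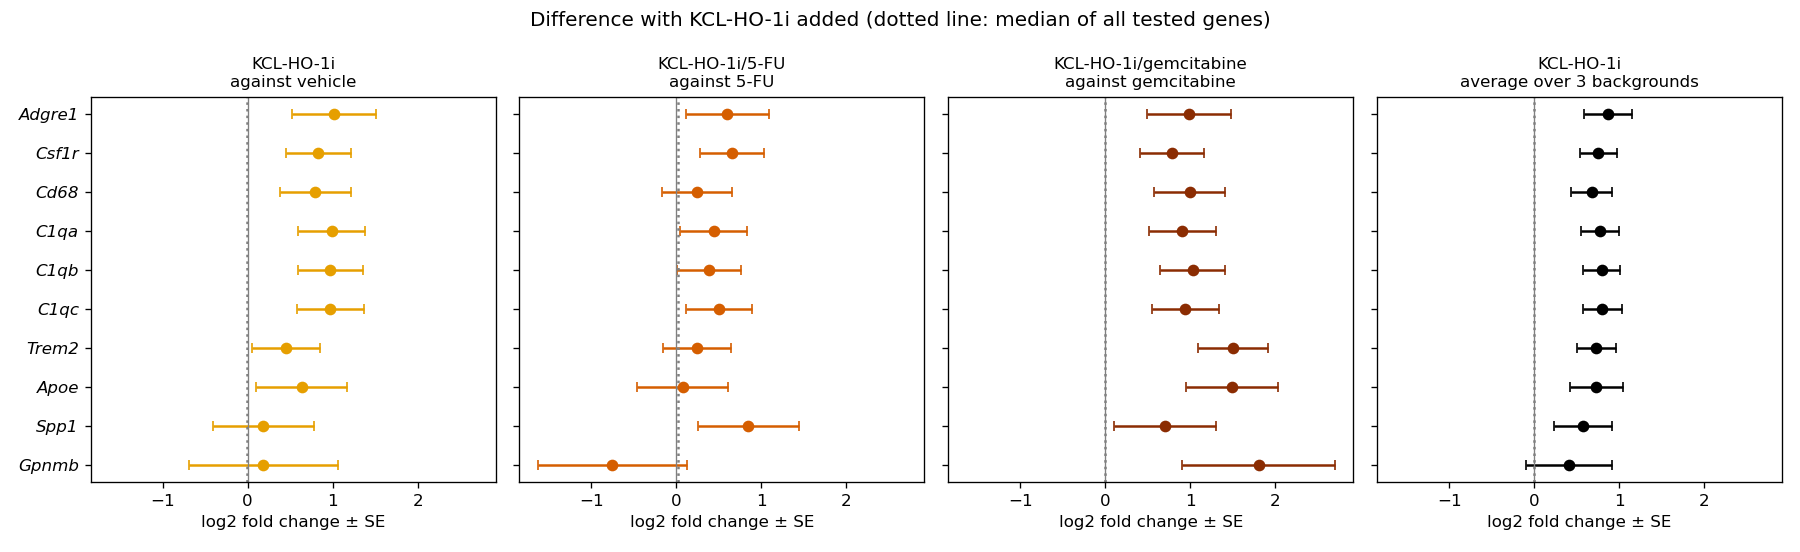
Log2 fold changes (points) with SE (bars) of the 10 macrophage genes for KCL-HO-1i against its matching group in 3 backgrounds and for their average, with a dotted line at the median of all tested genes. The C1q chains, Csf1r and Adgre1 lie close together, Trem2 and Apoe stand at 1.51 and 1.49 with gemcitabine and at 0.24 and 0.07 with 5-FU, and the bars of Gpnmb, which runs from -0.75 to 1.80, are the widest.

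Within groups, the macrophage genes varied together from tumor to tumor. After subtracting group means from log2 CPM, the Pearson r over the 30 libraries was 0.978 to 0.986 among the C1q chains, and each chain had the other 2 as its nearest 2 genes of the 13662 compared. Next after them came Ctss (C1qa, r = 0.955), Tyrobp (C1qb, r = 0.945) and Cyth4 (C1qc, r = 0.957). The nearest genes to Csf1r were Laptm5 (r = 0.976, Spearman rho = 0.969), Cyth4 (r = 0.959) and Pld4 (r = 0.957), and those to Adgre1 were Tlr8 (r = 0.957), Laptm5 (r = 0.945) and Csf1r (r = 0.940). All points share the libraries and their depth, and vehicle replicate 3 lay far out for most genes, but leaving out the 2 libraries farthest from the median of each gene left the mean r with the other 9 genes at 0.784 for Trem2 (0.803 with all) and 0.854 for C1qb (0.849 with all).

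Trem2 was nearest to Ms4a7 (r = 0.946), Tyrobp (r = 0.930) and Apoe (r = 0.924), and Apoe to Tyrobp (r = 0.944), C1qb (r = 0.938) and C1qa (r = 0.934). Tyrobp encodes the signaling adaptor of TREM2. Cd68 stood nearer to C5ar1 (r = 0.916), Pik3r5 (r = 0.914) and Cd300lb (r = 0.904) than to any of the other 9 genes, of which Gpnmb was the closest (r = 0.740). Gpnmb was nearest to Atp6v0d2 (r = 0.920), a subunit of the lysosomal proton pump, followed by Tgfbi and Sirpa (r = 0.871 for both). Spp1 had the lowest mean r with the other 9 genes, 0.568, and 0.455 without 5-FU replicate 4 and vehicle replicate 3. Its nearest genes were Cd14 (r = 0.916), Vtcn1 (r = 0.915) and Slc2a9 (r = 0.911), and without those libraries these fell to 0.809, 0.823 and 0.765.

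**Figure D4:**
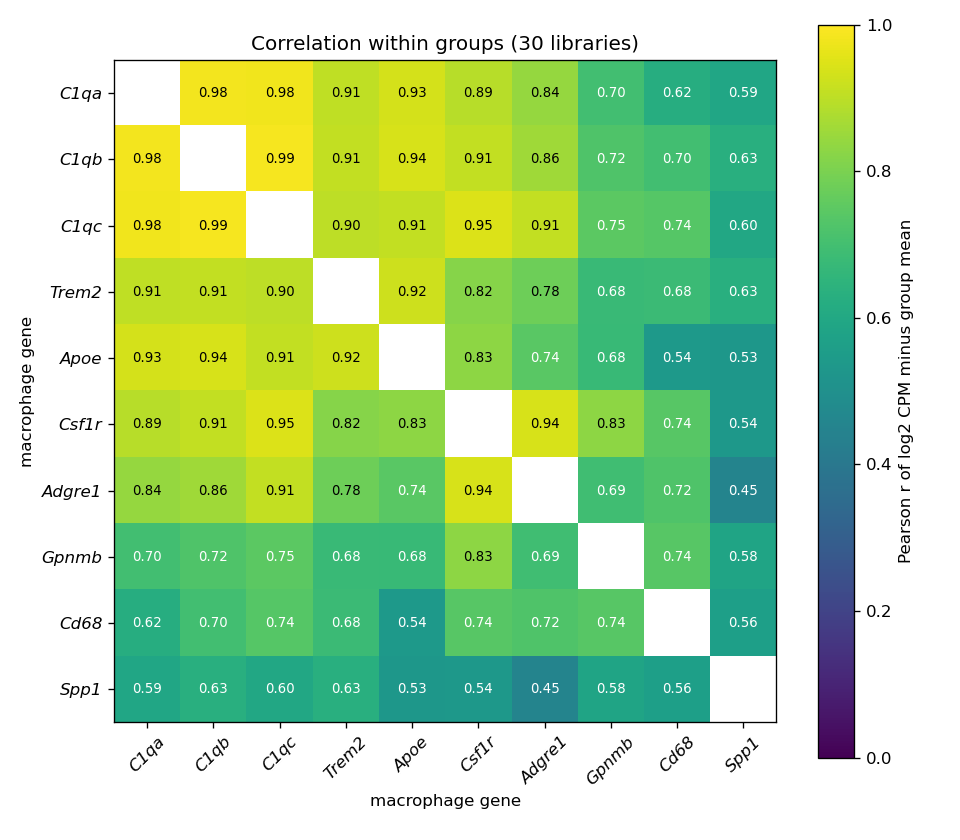
Pearson r between the macrophage genes over the 30 libraries, from log2 CPM with the group means subtracted, as a color scale from 0 to 1 with the value in each cell. The C1q chains form the tightest block (0.978 to 0.986), Trem2 and Apoe join it, and the row of Spp1 (0.452 to 0.632) has the lowest mean.

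Markers of other cells were higher in the same comparison, and their part in these differences was not tested. In the KCL-HO-1i average, 7 of 7 adipocyte markers, 8 of 8 skeletal muscle markers, 6 of 6 fibroblast markers and 4 of 5 endothelial markers were higher at an unadjusted p under 0.05, with medians of 2.34, 3.35, 1.57 and 0.74. By the same rule 13.7% of all tested genes were higher. Of the luminal epithelial markers 0 of 5 were higher and 1, Cdh1, was lower, of the T cell markers 0 of 5 were higher, and none of the 4 B cell markers passed the filter. Of the myeloid relatives, 2 of 3 neutrophil, 0 of 2 monocyte and 1 of 3 dendritic cell markers that passed the filter were higher. Leading markers were Plin1 of adipocytes at 2.80 ± 1.01, Myh4 of skeletal muscle at 3.85 ± 1.10 and Pdgfra of fibroblasts at 1.41 ± 0.40 (adjusted p = 0.102, 0.0570 and 0.0562). No marker was at 0 in every library. The average did not hold in each background. When KCL-HO-1i was added to 5-FU, 0 of 8 skeletal muscle markers had positive log2 fold changes (median -2.30). The skeletal muscle medians were 7.07 on vehicle and 5.63 on gemcitabine. For the adipocyte markers the medians were 0.15 on 5-FU, 3.95 on vehicle and 2.48 on gemcitabine. All 6 fibroblast and all 5 endothelial markers were positive on 5-FU (medians 0.89 and 0.44).

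The summed fibroblast markers ran from 90.1 to 885 CPM in vehicle, 485 to 1176 in 5-FU, 316 to 3208 in gemcitabine, 368 to 3611 in KCL-HO-1i, 166 to 4484 in KCL-HO-1i/5-FU and 306 to 11988.5 in KCL-HO-1i/gemcitabine. The summed adipocyte markers ran from 0.264 to 261 CPM in vehicle, 0.0815 to 103 in 5-FU, 0.735 to 845 in gemcitabine, 8.66 to 3612 in KCL-HO-1i, 0.470 to 118 in KCL-HO-1i/5-FU and 1.49 to 4861 in KCL-HO-1i/gemcitabine. In the same order, the summed skeletal muscle markers ran from 1.60 to 40.4, 1.14 to 239, 2.33 to 228, 16.1 to 4290.0, 1.41 to 55.9 and 1.26 to 12760.6 CPM. These ranges overlapped between all groups. Within groups, the mean log2 level of the fibroblast markers correlated with C1qb at r = 0.781, with Csf1r at 0.813 and with Spp1 at 0.386 over 30 libraries. Spp1 was the one gene of the 10 that ran with the luminal epithelial markers, at r = 0.601, where the other 9 ranged from -0.038 to 0.186.

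With the fibroblast score as a covariate, chosen after the data were seen, the KCL-HO-1i average was 0.47 for C1qb, 0.36 for Csf1r, 0.22 for Apoe and -0.35 for Gpnmb, and 5 of 10 genes were higher at an unadjusted p under 0.05, beside 4.25% of tested genes. The adipocyte score in its place gave 0.56, 0.42, 0.41 and -0.42, and a count of 6 of 10 beside 6.58%. With the skeletal muscle score the count was 7 of 10 beside 6.1%, and Gpnmb was at -0.0133. None of the 10 passed the adjusted threshold in these fits, where the lowest adjusted p of edgeR's test among them was 0.607, 0.328 and 0.352 for the fibroblast, adipocyte and skeletal muscle scores.

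The library names in the labels also carry, after the letters PY, a number whose meaning is not stated, called the PY code here. It is shared by up to 7 libraries among 13 codes. The full names differ between all libraries, so a shared code does not show a shared mouse. Most libraries without KCL-HO-1i had codes that no library given it carried, so that for these the code and KCL-HO-1i cannot be told apart. Code 76 alone held 7 libraries, all of 5-FU or gemcitabine. In 3 codes, libraries with and without KCL-HO-1i can be set side by side, and the macrophage genes were higher with KCL-HO-1i in 8, 9 and 10 of the 10 genes, while 51.5, 52.7 and 50.2% of all tested genes were. In the first of them C1qb was 92.8 CPM in KCL-HO-1i replicate 4 and 44.7 CPM in 5-FU replicate 4, in the second it was 106 CPM in the mean of 2 KCL-HO-1i/5-FU libraries and 73.36 CPM in 5-FU replicate 5, and in the third it was 142 CPM in KCL-HO-1i/gemcitabine replicate 5 and 58.9 CPM in vehicle replicate 1. Apoe was lower with KCL-HO-1i in the first and second. Each code joins different treatments and single libraries, so these values are descriptions without a test.

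Genes that act with the macrophage genes were read from lists in the KCL-HO-1i average, and none of their genes passed the adjusted threshold. The counts of every list below stand beside 13.7% of all tested genes that were higher at an unadjusted p under 0.05. Of 15 other myeloid receptors and adaptors, 13 were higher at an unadjusted p under 0.05, with a median of 0.74. Fcgr3, a low-affinity receptor for antibody, was at 0.93 ± 0.25 (adjusted p = 0.0532), and the chemokine receptor gene Cx3cr1 at 0.77 ± 0.22 (adjusted p = 0.0558). Marco, a scavenger receptor gene, had means of 0.017 CPM in vehicle and 0.0801 in 5-FU, both under the level of 3 counts, and 0.459 in gemcitabine. In the matching groups given the inhibitor its means were 0.690, 5.02 and 0.468 CPM. KCL-HO-1i/5-FU thus stood apart, and the gemcitabine pair was nearly equal.

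Of 8 CSF1R ligand and macrophage transcription factor genes, 6 were higher by the same rule (median 0.57). They included Maf at 1.51 ± 0.38 (adjusted p = 0.0525), Spi1, which encodes PU.1, at 0.88 ± 0.24 (adjusted p = 0.0548), and the ligand genes Csf1 at 0.42 ± 0.16 and Il34 at 0.62 ± 0.26. Among 13 complement partners and receptors of C1q, 10 were higher (median 1.15). The protease gene C1ra, whose product associates with C1q, was at 1.45 ± 0.44 and the anaphylatoxin receptor gene C5ar1 at 1.36 ± 0.33 (adjusted p = 0.0652 and 0.0525).

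Of 16 TREM2 and lipid handling partners, 8 were higher (median 0.44). Cd36, Fabp4 and Lpl, which adipocytes also express, were at 2.69 ± 0.80, 2.44 ± 0.84 and 2.28 ± 0.61, while Tyrobp of the myeloid list was at 0.86 ± 0.24 and Syk, the kinase downstream of it, at 0.87 ± 0.27. Nr1h3, a sterol-sensing nuclear receptor gene, was at 0.87 ± 0.25 (adjusted p = 0.0562) and Lrp1, a receptor that takes up APOE, at 1.20 ± 0.34 (adjusted p = 0.0570). Of 12 lysosomal protease and MiT/TFE genes, 9 were higher, but by less (median 0.24), with Lgmn at 0.84 ± 0.21 and Mitf at 0.70 ± 0.18 (adjusted p = 0.0525 for both). Tfec, of the same list, had means of 0.179, 0.738 and 0.936 CPM in vehicle, 5-FU and gemcitabine, where the vehicle mean was under the level of 3 counts. In the matching groups with KCL-HO-1i its means were 1.55, 1.52 and 2.42 CPM. Of 7 osteopontin receptor genes, 3 were higher (median 0.19), namely the integrin genes Itga9 at 0.48 ± 0.12, Itga4 at 0.99 ± 0.34 and Itgb5 at 0.23 ± 0.11, while Cd44 was at -0.14 ± 0.09 (adjusted p = 0.354).

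**Figure D5:**
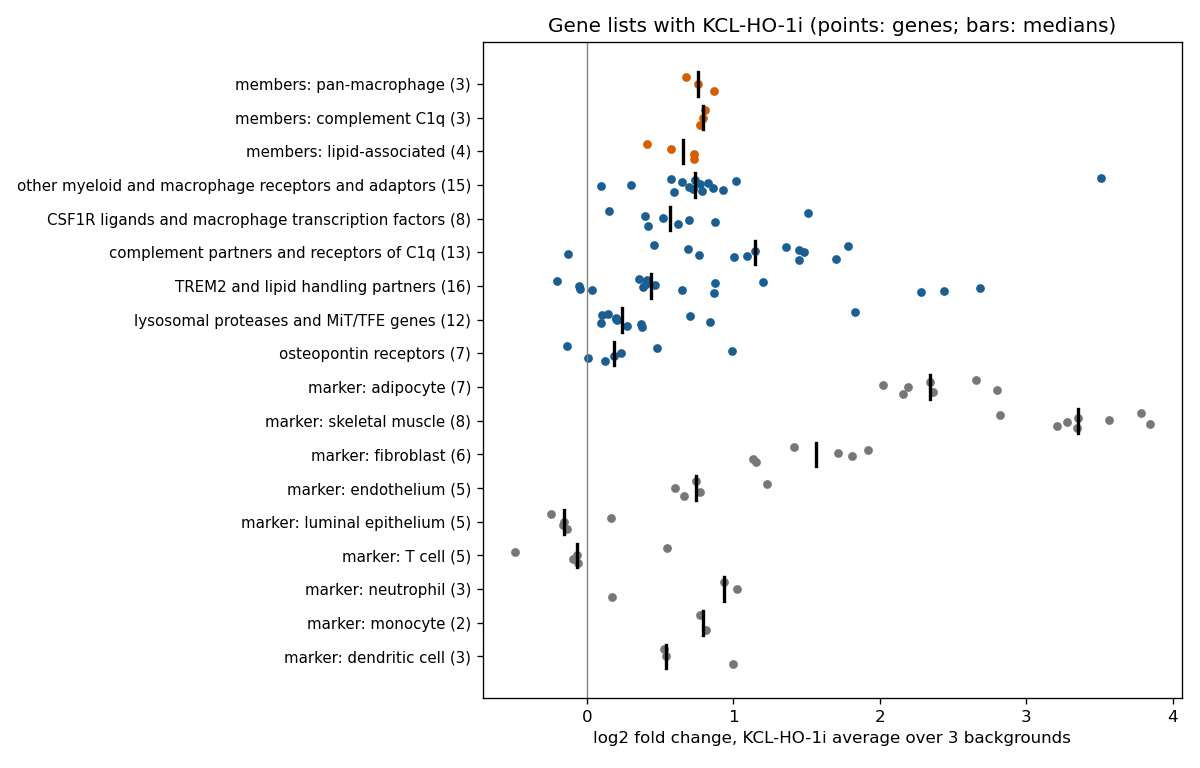
Log2 fold change of each tested gene in the KCL-HO-1i average (points) by gene list, with the number of genes in parentheses and a bar at the median (orange, the 10 macrophage genes; blue, their partners; gray, cell type markers). The macrophage genes lie between 0.41 and 0.87, below the adipocyte, skeletal muscle and fibroblast medians of 2.34, 3.35 and 1.57 and above the luminal epithelial and T cell medians of -0.16 and -0.07.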

How the data were processed

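Total RNA of 30 tumors (RNAlater, RNeasy, NEBNext Ultra II Directional) was sequenced. Per the study's methods and the submitters' processing notes, the authors used FastQC 0.11.9, STAR 2.7.9a, Salmon 1.9.0 and build mm10. The annotation release is not given in the sources used here. The deposited values are expected counts (estimated reads per gene), although the methods speak of TPM, since totals differ and 38% of values are not whole. They were rounded here. The p-values weigh the differences between groups against the spread between these libraries within groups.

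Groups came from the labels. Testing used edgeR 4.0.16 in R 4.3.3 (TMM, filterByExpr with a minimum count of 10, quasi-likelihood, 6 group means), with 12 contrasts and two-sided p-values adjusted by the Benjamini-Hochberg method. The 8178 genes left out held 0.0564% of counts. On simulated data for the KCL-HO-1i average (13600 genes), 88% of 2-fold and 100% of 4-fold changes were recovered with 16 false calls. Whether these figures hold for the libraries of this study, where the macrophage genes varied together within groups, was not tested. Floors cover counting error only. Duplicates were checked in 60 pairs within groups (lowest chi-square per degree of freedom 20.1), and none was found.

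The macrophage genes and the lists were chosen with earlier results of these data known. The named genes were the 10 macrophage genes, Hmox1, up to 3 genes of each list with the smallest p in the KCL-HO-1i average, and the 3 genes with the highest Pearson r for each macrophage gene. Csf1, Il34, Cd36, Fabp4, Syk, Tyrobp and Cd44 were named after their values were seen. One gene that the rule names is not reported here. Exon lengths are unions over GENCODE M21, and upstream sequences came from RefSeq (GRCm38.p6), which matched 7 of 10 genes. On both strands, GAGGAA was found in 7 of the 10 windows of these genes, TCATGTG in 2 and TGANTCA in 2. The E-box CACGTG and the C/EBP site TTGCNNCAA were in 0 of them and in 6.02% and 1.74% of all windows.

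Alternatives were RLE scaling, DESeq2 1.42.0, limma-voom (limma 3.58.1) with quality weights, no filter, a mean count of at least 50, the replicate block, the PY code, fits to the compared groups only, leaving out each library in turn, and, for correlations, another prior count (0.5). Marker scores as covariates were added after the data were seen.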

Additional observations from a re-analysis of the deposited data

Results flagged for a closer look

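In 3 of 60 sets (10 macrophage genes in 6 groups of 5), 1 library lay farther from its nearest neighbor than the 95% critical value of Dixon's test allows, 0.71 of the whole range of the group. Chance alone gives about 1 in 20 such sets, and 3 of 60 is that share. Csf1r in 5-FU replicate 4 was lowest at 25.8 CPM, with a gap of 0.769 of the range. Cd68 in gemcitabine replicate 5 was highest at 44.0 CPM, with a gap of 0.766, and Gpnmb in the same library was highest at 29.5 CPM, with a gap of 0.827.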

How the results depend on the processing

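Of 10 macrophage genes, edgeR called 0 in each of the 12 comparisons. In the KCL-HO-1i average the count was 6 with DESeq2 and 2 with limma-voom, in KCL-HO-1i/gemcitabine against vehicle 4 with DESeq2 and 8 with limma-voom, and in KCL-HO-1i/5-FU against vehicle 1 with DESeq2. Leaving out single libraries gave 0 to 7 in the KCL-HO-1i average, with 7 when gemcitabine replicate 5 was left out, 2 and 3 for replicates 1 and 5 of KCL-HO-1i, 4 for either of replicates 4 and 5 of KCL-HO-1i/5-FU, and 1 for replicate 4 of KCL-HO-1i/gemcitabine. These fits called 3.37 to 8.17% of all tested genes, against 0.0586% with all libraries. It stayed at 0 in the other 11 comparisons. The other alternatives gave 0, among them RLE scaling, no filter, a mean count of at least 50 and the PY code. With the PY code, the median log2 fold change of the 10 genes in the KCL-HO-1i average was 1.37 in place of 0.74. The lowest adjusted p of edgeR's test among them was 0.332. That fit had 12 residual degrees of freedom for 13 codes, of which 3 held libraries with and without KCL-HO-1i, under unlike treatments. The shift therefore does not show a larger difference. With the replicate block 0 genes were called, and C1qb was at 0.79 (adjusted p = 0.114). For libraries of the same number, the mean correlation of residuals was 0.00284 over 75 pairs, in a range from -0.583 to 0.48. This mean does not show whether single pairs shared more than their number. Gpnmb turned negative in the KCL-HO-1i average with a marker score as a covariate (adipocyte -0.42, skeletal muscle -0.0133, fibroblast -0.35). The mean r of Spp1 with the other 9 genes fell to 0.455 without its 2 farthest libraries. Group mean CPM moved by less than 1 SD with RLE scaling in all 60 cases. The cause of these shifts was not tested. With 5 libraries a group, the biological coefficient of variation common to all genes was 0.401. The lowest count of the 10 genes in any library was 11, for Gpnmb.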
